A study of Mus musculus with 10 samples.

Results

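The genes described here encode splicing factors and heterogeneous nuclear ribonucleoproteins (hnRNPs), and the members were found by gene symbol. A probe was a member when its annotated symbol began with Srsf, Hnrnp, Sf3a, Sf3b, Snrp, Prpf, Ptbp, Rbfox, Esrp, Mbnl or Celf followed by a letter or digit, with Snrpn left out. This gave 134 of 25697 probes and 72 of 16593 genes. Of these, 15 genes were tissue regulators (Esrp, Rbfox, Ptbp, Celf and Mbnl) and 57 were core factors, namely 18 hnRNPs, 9 SR proteins, 10 Snrp genes, 9 Sf3a and Sf3b genes and 11 Prpf genes. The study measured mouse cells on 10 one-colour Illumina arrays in 5 groups of 2. The first group, piPS-2F, held parthenogenetic induced pluripotent cells obtained from neural stem cells that overexpressed Oct4 and Klf4, although 1 label of the second array names Klf5. The second, pESC-B, was an embryonic stem cell line of parthenogenetic origin, sorted by SSEA-1, a surface antigen of pluripotent mouse cells, and the third, fESC, was a female embryonic stem cell line with the label OG2. The last 2 groups were parthenogenetic neural stem cells (pNSC) and neural stem cells from female mice (fNSC). Each group is 1 line or preparation measured in duplicate as far as the labels say, so that p-values measure only the spread between duplicate arrays, which may be technical.

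Splicing removes introns from messenger RNA precursors. The core machinery is built from small nuclear ribonucleoproteins (snRNPs): the Snrp genes encode Sm ring proteins and snRNP-specific proteins, the SF3a and SF3b complexes belong to the U2 snRNP and help to recognise the branch point, and many Prpf proteins sit in the U4/U6.U5 tri-snRNP or in the activated spliceosome. SR proteins usually favour and hnRNPs often oppose the use of an exon. The tissue regulators bind short RNA motifs and set exon choices of particular cell types: Esrp proteins act in epithelial cells, Mbnl and Celf proteins act in muscle and brain, Rbfox proteins act in neurons, muscle and stem cells, and Ptbp1 represses neuronal exons in cells that are not neurons.

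All levels below are log2 signals after background correction and quantile normalization, and all differences are log2 differences ± SE with 2 arrays in each group. A gene was called higher or lower when the limma test gave a Benjamini-Hochberg adjusted p under 0.05 over all 13564 probes tested and the difference was at least 1. Tested probes had a detection p under 0.01 on both arrays in 1 group or more. Each gene was counted by its brightest tested probe, and where a group had the gene on neither array the fold is given as a lower bound, or no fold where that bound is under 1. Of the 72 genes, 60 were tested through 105 probes, among 9220 genes in all. The 12 genes that were not tested were Celf3, Mbnl3, Ptbp2, Rbfox1, Rbfox3, Hnrnpd, Hnrnpr, Srsf12, Snrpb2, Snrpe, Sf3b1 and Prpf4b, and no level is given for them. Between 93 and 98 of the 134 member probes were detected per array. Duplicate arrays correlated at 0.993 to 0.997 over the tested member probes. All 6 pluripotency markers were detected on both arrays of piPS-2F, pESC-B and fESC, against 1 of 6 in pNSC and in fNSC. The 4 tested neural stem cell markers were detected on both arrays of pNSC and fNSC. In piPS-2F, pESC-B and fESC, 2 of these 4, Nes and Slc1a3, were detected on both arrays. The mean intensity was 287 to 327 on the piPS-2F and pESC-B arrays and 476 to 625 on the fESC, pNSC and fNSC arrays. This difference in brightness follows the groups and cannot be told apart from them, and its part in the results below was not tested. In bulk RNA, fewer cells that make a transcript and less of it per cell cannot be told apart.

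In all 3 comparisons of pluripotent with neural cells, more of the tested members were called higher than lower. Of the 60 tested members, 27 were called in piPS-2F against pNSC, where 53.4% of all genes were called. The 22 called higher were 36.7% of the members, against 27% of all genes, and the 5 called lower were 8.33%, against 26.4% of all genes. In pESC-B against pNSC, 22 members were called (51.2% of all genes), with 17 higher (28.3% of members, 26.1% of all genes) and 5 lower (8.33% of members, 25.1% of all genes). These 2 comparisons share the pNSC arrays. In fESC against fNSC, which shares no array with them, 22 members were called (48.6% of all genes), 17 higher (28.3% of members, 23.9% of all genes) and 5 lower (8.33% of members, 24.8% of all genes). The median difference of the tested members was 0.59, 0.50 and 0.57 in the 3 comparisons in this order, and that of all genes was 0.03, 0.05 and 0.02. With arrays scaled to a common median in place of quantiles, the median of all genes moved to -0.45, -0.32 and -0.20 and that of the members to 0.33, 0.22 and 0.53. Of the 60 members, 15 were then called higher and 11 lower in piPS-2F against pNSC, where 18.1% and 36.8% of all genes were. In pESC-B against pNSC, 13 were then called higher and 9 lower, where 18.9% and 33.2% of all genes were. All 6 pluripotent arrays lay above all 4 neural arrays for 23 members (38.3%, against 28.1% of all genes) and below them for 6 members (10%, against 25.9% of all genes). For the other 31 members the pluripotent and neural arrays overlapped. The tested members were brighter than the genes they are set against. Their median log2 signal was 10.18 to 10.76 by group, against 7.73 to 7.80 for all tested genes. The part of this in the shares and median differences was not tested. Interaction tests asked whether the difference in piPS-2F or in pESC-B against pNSC was unlike that in fESC against fNSC. They called 8 members (4 more positive, 4 more negative) for piPS-2F and 11 members (6 and 5) for pESC-B. Of all genes, 28.5% (14.3% and 14.2%) and 30.2% (15.9% and 14.3%) were called.

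The tissue regulators went in both directions and held the largest differences among the members. Of the 10 tested, 6 were called higher and 2 lower in piPS-2F against pNSC, 5 higher and 3 lower in pESC-B against pNSC, and 4 higher and 3 lower in fESC against fNSC. The share called higher was 60%, 50% and 40%, against 27%, 26.1% and 23.9% of all genes. The share called lower was 20%, 30% and 30%, against 26.4%, 25.1% and 24.8%. Esrp1, Ptbp1, Rbfox2 and Celf4 were called higher and Celf2 and Mbnl1 lower in all 3 comparisons. Among all genes, 15.3% were called higher in all 3 comparisons and 15.8% lower. The plot of the 10 regulators by group shows all their arrays.

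**Figure D1:**
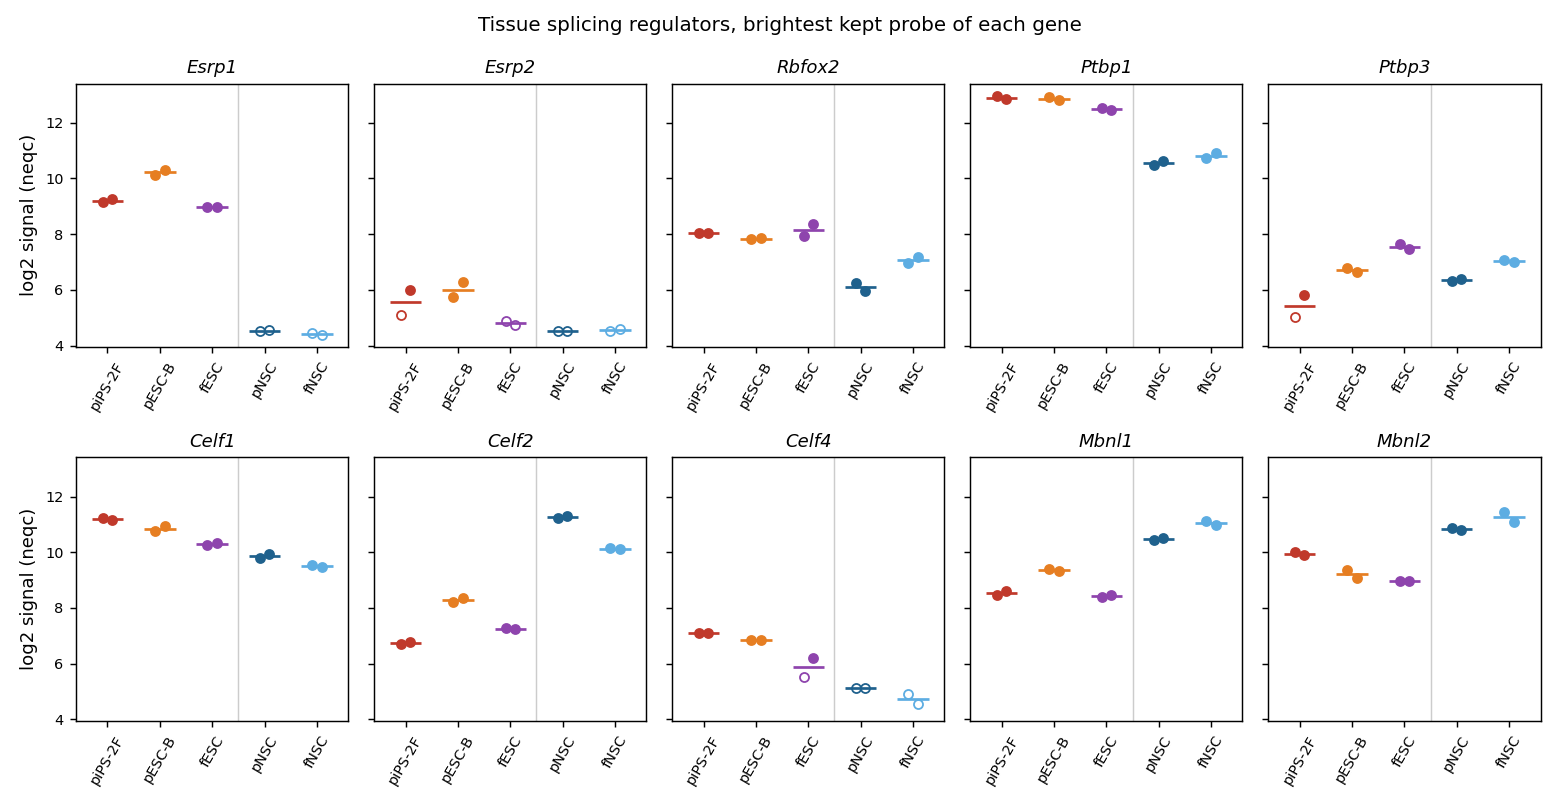
Log2 signal (vertical axis) of the brightest tested probe of each of the 10 tested tissue regulators on every array, by group on the horizontal axis. Points are single arrays, filled where the probe was detected and open where it was not, short lines are group means of 2 arrays, and the grey line parts pluripotent from neural groups. Esrp1, Ptbp1, Rbfox2 and Celf4 lie higher in all 3 pluripotent groups, and Celf2, Mbnl1 and Mbnl2 lie lower.

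Esrp1, an epithelial splicing regulator, had log2 signals of 9.15 and 9.25 on the piPS-2F arrays, 10.12 and 10.31 on the pESC-B arrays and 8.99 and 8.98 on the fESC arrays, against 4.51 and 4.56 in pNSC and 4.45 and 4.38 in fNSC. The gene was detected on all 6 pluripotent arrays and on none of the 4 neural arrays. The difference was 4.66 ± 0.13 in piPS-2F against pNSC (adjusted p = 1.1e-09, at least 12.8-fold), 5.68 ± 0.13 in pESC-B against pNSC (adjusted p = 3.4e-10, at least 25.9-fold) and 4.57 ± 0.13 in fESC against fNSC (adjusted p = 1.3e-09, at least 12.2-fold). Its relative Esrp2, which acts on many of the same exons, had signals of 5.10 and 6.01 in piPS-2F, 5.73 and 6.28 in pESC-B and 4.90 and 4.74 in fESC, against 4.52 and 4.54 in pNSC and 4.51 and 4.61 in fNSC. It was detected on 1 of the 2 piPS-2F arrays, on both pESC-B arrays and on no fESC, pNSC or fNSC array. Esrp2 was called higher in piPS-2F (1.03 ± 0.27, adjusted p = 0.0054, at least 1.03-fold) and in pESC-B (1.47 ± 0.27, adjusted p = 5.9e-04, at least 1.4-fold) against pNSC, while in fESC against fNSC the difference was 0.26 ± 0.27. The call in piPS-2F was lost without piPS-2F replicate 2 (0.60), and also without pNSC replicate 1 (0.98) or 2 (0.99) or fNSC replicate 1 (0.995), and with a larger offset of 50 in the background step both calls were lost (0.52 and 0.79). Other epithelial genes moved beside Esrp1. All 4 tested epithelial markers were called higher in each of the 3 comparisons, none of them was detected in a neural group, and their summed signal was 1563 to 1690 in piPS-2F, 2939 to 3002 in pESC-B and 3874 to 4160 in fESC, against 105 to 108 in pNSC and 95.6 to 98.5 in fNSC. The adhesion gene Cdh1 was higher by at least 18.4-fold in piPS-2F and by at least 27.1-fold in pESC-B than in pNSC, and by at least 58.4-fold in fESC than in fNSC. Mesenchymal or feeder fibroblast markers, 7 tested of 8, went in both directions, with 2 called higher and 3 lower in piPS-2F against pNSC, 2 higher and 4 lower in pESC-B against pNSC, and 4 higher and 3 lower in fESC against fNSC. Their summed signal was 2290 to 2805 in piPS-2F, 1659 to 1698 in pESC-B and 2204 to 2276 in fESC, against 17878 to 18050 in pNSC and 12334 to 13711 in fNSC. The neural sums came mostly from Vim (mean log2 signal 13.28 in pNSC and 12.87 in fNSC) and Zeb1 (12.80 and 12.20). Zeb1, Zeb2 and Vim are also present in neural stem cells, so that these sums do not measure fibroblasts. Lower in each comparison were Vim, Zeb2 and Zeb1, a repressor of epithelial genes, which had -4.32 in piPS-2F and -5.37 in pESC-B against pNSC and -4.05 in fESC against fNSC. The fibroblast genes Col1a1 and Dcn were detected on every pluripotent array and on no neural array. Col1a1 was higher by at least 2.8-fold in piPS-2F and 1.38-fold in pESC-B than in pNSC and by at least 2.45-fold in fESC than in fNSC, and Dcn by at least 4.57-fold, 2.01-fold and 4.32-fold. Col3a1 was detected on no piPS-2F, pESC-B, pNSC or fNSC array and was higher by at least 3.26-fold in fESC than in fNSC. The part of these genes, and of any cells that carry them, in the Esrp result and in the other results was not tested.

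Ptbp1, the polypyrimidine tract-binding repressor of neuronal exons, had log2 signals of 12.98 and 12.84 in piPS-2F, 12.91 and 12.82 in pESC-B and 12.52 and 12.46 in fESC, against 10.50 and 10.62 in pNSC and 10.74 and 10.90 in fNSC. All pluripotent arrays were above all neural arrays. The difference was 2.35 ± 0.14 in piPS-2F (adjusted p = 1.1e-07) and 2.31 ± 0.14 in pESC-B (adjusted p = 1.4e-07) against pNSC, and 1.67 ± 0.14 in fESC against fNSC (adjusted p = 1.5e-06). The second probe of Ptbp1 gave 2.88 ± 0.18, 2.38 ± 0.18 and 2.16 ± 0.18 in the same 3 comparisons, so both probes were called higher in each. Its paralog Ptbp3 had signals of 5.03 and 5.82 in piPS-2F, 6.80 and 6.64 in pESC-B and 7.64 and 7.47 in fESC, against 6.31 and 6.39 in pNSC and 7.06 and 6.99 in fNSC. Ptbp3 was detected on 1 of the 2 piPS-2F arrays and was lowest there, and it was not called in any comparison with neural cells (-0.93 ± 0.22 in piPS-2F against pNSC, 0.37 ± 0.22 in pESC-B against pNSC and 0.52 ± 0.22 in fESC against fNSC). The neuronal paralog Ptbp2 was detected on both arrays of no group.

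The promoter of Ptbp1 is shown as that of a regulator called higher in every comparison with neural cells. It covers chr10:79854182-79854481 on the plus strand of GRCm38.p6 in RefSeq, from 250 bases before to 50 after the annotated start. Capitals mark matches, on either strand, to the E-box CAGGTG bound by Zeb and Snai proteins with CACCTG on the other strand, to the Klf motif GGGNGTG with CACNCCC on the other strand, or to the octamer bound by Oct4, which is ATGCAAAT with ATTTGCAT on the other strand.
Ptbp1: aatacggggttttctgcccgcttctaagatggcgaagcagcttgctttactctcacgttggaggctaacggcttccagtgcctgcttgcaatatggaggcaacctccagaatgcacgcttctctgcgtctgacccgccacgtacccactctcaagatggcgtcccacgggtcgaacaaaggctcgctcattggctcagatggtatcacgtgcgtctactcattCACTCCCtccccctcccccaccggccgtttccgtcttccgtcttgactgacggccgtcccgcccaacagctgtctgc
It holds 1 match to the Klf motif and none to the E-box or the octamer. Of the 60 tested members, 49 were in the RefSeq promoter table with 69 starts, while Esrp1, Esrp2, Rbfox2 and Celf4 were not among them. The E-box was present in 9 of the 69 windows (13%), against 20.2% of all 32851 windows of the table. The Klf motif was present in 25 of the 69 (36.2%, against 29.2% of all) and the octamer in 0 of the 69 (against 1.74% of all). The GC box GGGCGG, which reads CCGCCC on the other strand, is bound by Sp1 and Klf proteins and can share letters with the Klf motif. It was present in 44 of the 69 (63.8%, against 35.7% of all). The 69 windows belong only to tested genes, while the 32851 were not limited to tested genes. All these shares therefore compare unlike sets and do not show a trait of splicing genes. Several windows of a gene can overlap, and a match is only a match of letters.

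Rbfox2, which binds GCAUG elements beside alternative exons, had signals of 8.03 and 8.03 in piPS-2F, 7.81 and 7.86 in pESC-B and 7.94 and 8.36 in fESC, against 6.25 and 5.96 in pNSC and 6.96 and 7.16 in fNSC. Every pluripotent array was above every neural array. Rbfox2 was higher by 1.92 ± 0.17 in piPS-2F (adjusted p = 2.7e-06) and by 1.73 ± 0.17 in pESC-B (adjusted p = 6.7e-06) than in pNSC, and by 1.09 ± 0.17 in fESC than in fNSC (adjusted p = 2.2e-04). The last call was lost without fESC replicate 2 (0.88) or fNSC replicate 1 (0.98), with the offset of 50 (0.92), with the mean of both probes (0.95) and under median scaling (0.66). The second probe was called in the first 2 of these comparisons (1.57 ± 0.15 and 1.60 ± 0.15) and stayed under the fold limit in the third (0.82 ± 0.15). The neuronal members Rbfox1 and Rbfox3 did not pass the detection filter in any group.

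The 3 tested Celf genes did not go one way. Celf2, a regulator of neuronal and muscle exons, had log2 signals of 6.70 and 6.79 in piPS-2F, 8.20 and 8.36 in pESC-B and 7.27 and 7.25 in fESC, against 11.22 and 11.31 in pNSC and 10.15 and 10.12 in fNSC. It was lower on every pluripotent array than on every neural array. Celf2 fell by 4.52 ± 0.13 in piPS-2F (adjusted p = 1.1e-09) and by 2.99 ± 0.13 in pESC-B (adjusted p = 1.6e-08) against pNSC, and by 2.88 ± 0.13 in fESC against fNSC (adjusted p = 2.0e-08). Its second probe was called lower in all 3 as well, with differences of -5.55 ± 0.17, -4.40 ± 0.17 and -2.87 ± 0.17. The fall in piPS-2F against pNSC exceeded that in fESC against fNSC by 1.65 ± 0.18 in the interaction test (difference of differences -1.65, adjusted p = 1.0e-04). Celf4, a regulator known from neurons, had signals of 7.09 and 7.11 in piPS-2F, 6.85 and 6.87 in pESC-B and 5.52 and 6.20 in fESC, against 5.14 and 5.11 in pNSC and 4.91 and 4.54 in fNSC. It was detected on both arrays of piPS-2F and of pESC-B, on 1 of the 2 fESC arrays and on no neural array. Celf4 was higher by at least 2.98-fold in piPS-2F (1.97 ± 0.21, adjusted p = 1.1e-05) and by at least 2.53-fold in pESC-B (1.73 ± 0.21, adjusted p = 3.2e-05) than in pNSC. In fESC against fNSC it was at least 1.4-fold higher (1.14 ± 0.21, adjusted p = 6.7e-04), and this call was lost without fESC replicate 2 (0.81) or fNSC replicate 2 (0.94) and with the offset of 50 (0.62). Celf1, a widely expressed member that also acts on messenger RNA decay, had signals of 11.22 and 11.17 in piPS-2F, 10.76 and 10.93 in pESC-B and 10.25 and 10.34 in fESC, against 9.78 and 9.93 in pNSC and 9.56 and 9.46 in fNSC. The arrays of the pluripotent and neural groups did not overlap, but only the difference in piPS-2F against pNSC reached the fold limit (1.34 ± 0.14, adjusted p = 6.9e-06), with 0.99 ± 0.14 in pESC-B against pNSC and 0.79 ± 0.14 in fESC against fNSC. Of the 4 tested Celf1 probes, 3 were called higher in piPS-2F against pNSC and the fourth gave -0.02 ± 0.15. The call was lost with the mean of the 4 probes (0.96) and under median scaling (0.93).

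The 2 tested Mbnl genes, whose products switch exons from fetal to adult choices in muscle and brain, were lower in pluripotent cells. Mbnl1 had log2 signals of 8.47 and 8.62 in piPS-2F, 9.38 and 9.31 in pESC-B and 8.39 and 8.46 in fESC, against 10.43 and 10.50 in pNSC and 11.11 and 10.99 in fNSC. The groups did not overlap. Mbnl1 fell by 1.91 ± 0.13 in piPS-2F (adjusted p = 3.7e-07) and by 1.12 ± 0.13 in pESC-B (adjusted p = 2.3e-05) against pNSC, and by 2.62 ± 0.13 in fESC against fNSC (adjusted p = 4.2e-08). The fall was smaller in pESC-B against pNSC than in fESC against fNSC (difference of differences 1.50 ± 0.185, adjusted p = 1.6e-04). Mbnl2 had signals of 9.99 and 9.90 in piPS-2F, 9.38 and 9.09 in pESC-B and 8.97 and 8.97 in fESC, against 10.86 and 10.80 in pNSC and 11.44 and 11.10 in fNSC. All pluripotent arrays were again below all neural arrays. Mbnl2 fell by 1.60 ± 0.16 in pESC-B against pNSC (adjusted p = 6.4e-06) and by 2.30 ± 0.16 in fESC against fNSC (adjusted p = 4.3e-07). In piPS-2F against pNSC its difference was -0.88 ± 0.16 (adjusted p = 4.7e-04), under the fold limit. Its second probe passed the limit in each of the 3 comparisons, with -2.15 ± 0.21, -3.01 ± 0.21 and -2.20 ± 0.21, and the promoter of Mbnl2 is shown as that of a regulator on the falling side.
Mbnl2: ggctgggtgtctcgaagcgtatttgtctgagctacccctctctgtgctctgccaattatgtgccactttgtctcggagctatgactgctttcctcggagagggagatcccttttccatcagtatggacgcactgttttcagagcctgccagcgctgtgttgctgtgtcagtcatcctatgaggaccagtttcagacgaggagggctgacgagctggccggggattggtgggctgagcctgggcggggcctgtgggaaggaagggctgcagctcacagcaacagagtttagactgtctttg
This window covers chr14:120275419-120275718 on the plus strand of GRCm38.p6 and holds no match to the E-box, the Klf motif or the octamer. The GC box, which capitals do not mark, occurs both in this window and in that of Ptbp1.

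Among the 50 tested core factors the differences were smaller, between -1.70 and 2.11 in the 3 comparisons with neural cells, and fewer genes were called lower than higher. In piPS-2F against pNSC, 16 core factors were called higher and 3 lower (32% and 6%, against 27% and 26.4% of all genes), in pESC-B against pNSC 12 higher and 2 lower (24% and 4%, against 26.1% and 25.1%), and in fESC against fNSC 13 higher and 2 lower (26% and 4%, against 23.9% and 24.8%). The shares called higher were thus near those of all genes, and the shares called lower were smaller. Under median scaling the splits were 10 higher and 7 lower, 8 higher and 6 lower, and 14 higher and 3 lower, in this order. The shares of all genes called higher and lower were then 18.1% and 36.8%, 18.9% and 33.2%, and 20.1% and 29.8%. With quantile normalization the median difference of the core factors was 0.55, 0.46 and 0.57 in this order. Called higher in all 3 comparisons were Hnrnpf, Snrpb, Sf3a1, Sf3b3 and Prpf3, and no core factor was called lower in all 3. The plot of the core factors by class shows where the calls fell.

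**Figure D2:**
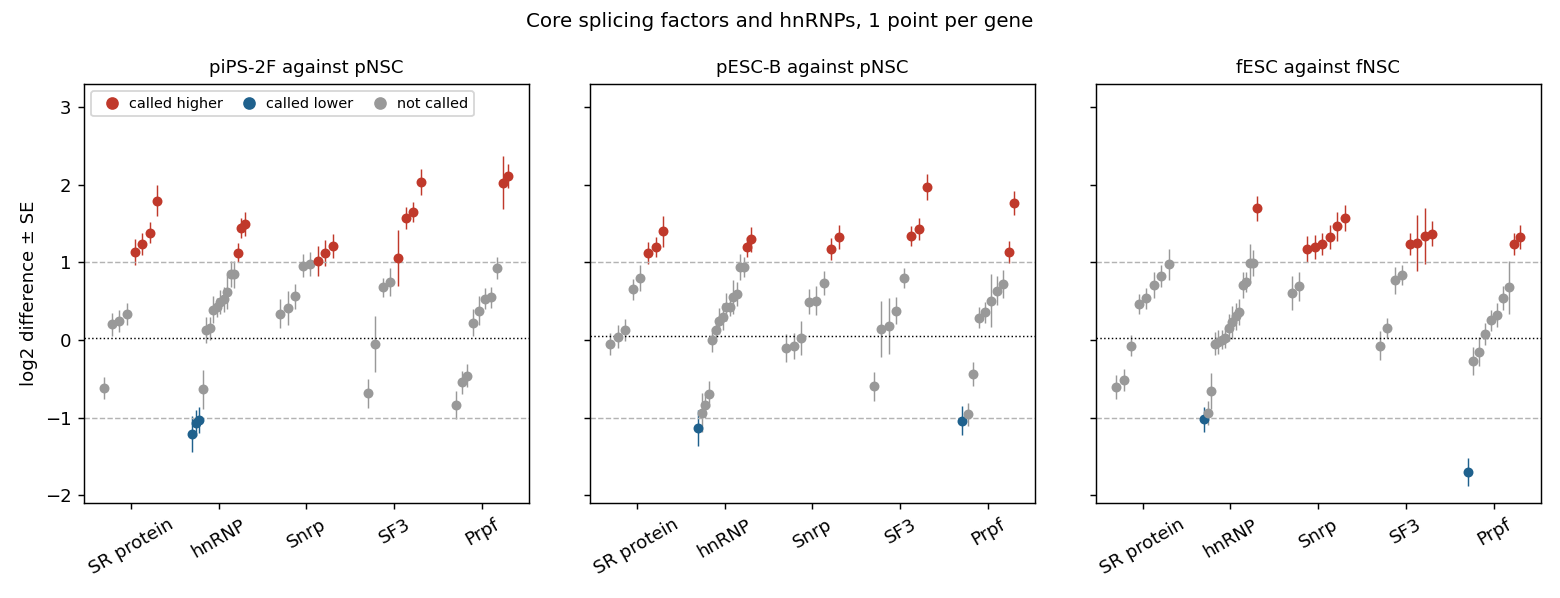
Log2 difference ± SE (vertical axis) of every tested core factor, 1 point per gene from its brightest tested probe, by class on the horizontal axis and by comparison in the 3 panels. Red points were called higher, blue points lower and grey points not called, the dashed lines mark differences of 1 and -1, and the dotted line is the median of all genes. Fewer calls lie on the lower side than on the higher side, and the fESC against fNSC panel has 6 of 8 Snrp genes and none of 8 SR proteins called.

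By their brightest probes, SR proteins reached the call limits in piPS-2F and pESC-B. Of 8 tested, 4 were called higher in piPS-2F against pNSC, 3 in pESC-B against pNSC and 0 in fESC against fNSC. The share called higher was 50%, 37.5% and 0%, against 27%, 26.1% and 23.9% of all genes. None was called lower, against 26.4%, 25.1% and 24.8% of all genes, and the median difference was 0.74, 0.72 and 0.50. In fESC against fNSC, where limma called 0 by the brightest probes, 7 of the 8 had an unadjusted p under 0.05. Of these, 5 were higher and 2 lower, with all differences under the fold limit. How many of all genes had an unadjusted p under 0.05 was not counted, so this is not a result about SR proteins. The 4 genes called in piPS-2F against pNSC were Srsf5, Srsf1, Srsf2 and Srsf10, named here after their values were seen. In fESC against fNSC another probe of Srsf2 (1.58) and of Srsf10 (1.63) was called higher, 1 of 3 probes for each gene. Srsf1, a regulator of constitutive and alternative exons, had log2 signals of 13.81 and 13.81 in piPS-2F, 13.57 and 13.68 in pESC-B and 13.07 and 13.09 in fESC, against 12.46 and 12.39 in pNSC and 12.71 and 12.52 in fNSC. All pluripotent arrays were above the neural arrays. The Srsf1 difference was 1.38 ± 0.13 in piPS-2F against pNSC and 1.19 ± 0.13 in pESC-B against pNSC, but 0.46 ± 0.13 in fESC against fNSC. The interaction test gave 0.92 ± 0.19 for piPS-2F (adjusted p = 0.0031) and 0.73 ± 0.19 for pESC-B (adjusted p = 0.0095), both under the fold limit, so Srsf1 was not called as different between the comparisons. No SR protein was called in either interaction. Srsf5 was higher by 1.79 ± 0.20 in piPS-2F and by 1.40 ± 0.20 in pESC-B against pNSC, and in fESC against fNSC its difference was 0.97 ± 0.20. Srsf2 was called in piPS-2F (1.24 ± 0.14) and pESC-B (1.12 ± 0.14) against pNSC, the second call being lost without pESC-B replicate 2 (0.96). Of its other probes, 1 was called higher in both (1.70 ± 0.22 and 1.48 ± 0.22) and 1 in neither (-0.21 ± 0.20 and 0.19 ± 0.20), and with the mean of the 3 probes both calls were lost (0.91 and 0.93). Srsf10, an SR protein that represses splicing when dephosphorylated, was called in piPS-2F against pNSC (1.13 ± 0.17), a call lost without pNSC replicate 1 (0.97) and under median scaling (0.57).

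Few hnRNPs were called, and they went in both directions. Of 16 tested, 3 were called higher and 3 lower in piPS-2F against pNSC, 2 higher and 1 lower in pESC-B against pNSC, and 1 higher and 1 lower in fESC against fNSC. The share called higher was 18.8%, 12.5% and 6.25%, against 27%, 26.1% and 23.9% of all genes. The share called lower was 18.8%, 6.25% and 6.25%, against 26.4%, 25.1% and 24.8%. Hnrnpa1, named here after its values were seen, was not called by its brighter probe. Its other probe was called higher in all 3 comparisons (1.63, 1.52 and 1.05). Hnrnpf, which binds G-rich RNA, had log2 signals of 10.59 and 10.50 in piPS-2F, 10.38 and 10.32 in pESC-B and 10.23 and 10.24 in fESC, against 9.12 and 8.99 in pNSC and 8.32 and 8.76 in fNSC. It was higher on all pluripotent arrays, by 1.49 ± 0.16 in piPS-2F and 1.30 ± 0.16 in pESC-B against pNSC and by 1.70 ± 0.16 in fESC against fNSC (adjusted p = 4.7e-06). Under median scaling the first 2 of these were 0.98 and 0.90, under the fold limit. Its relative Hnrnph2 was lower in piPS-2F (-1.21 ± 0.23, adjusted p = 7.8e-04) and in pESC-B (-1.14 ± 0.23, adjusted p = 0.0013) than in pNSC, and it was detected on both pNSC arrays and on no piPS-2F or pESC-B array. Its signals were 4.71 and 5.18 in piPS-2F and 4.67 and 5.37 in pESC-B, against 6.21 and 6.11 in pNSC, which gives at least 1.62-fold and at least 1.55-fold. The calls were lost without piPS-2F replicate 1 (-0.9997), without pESC-B replicate 1 (-0.80) and, both, with the offset of 50 (-0.70 and -0.65). Hnrnpa3, which also works in RNA transport, was dim, with signals of 4.47 and 4.44 in piPS-2F and 4.68 and 4.73 in fESC, against 5.42 and 5.56 in pNSC and 5.77 and 5.68 in fNSC. It was lower by 1.03 ± 0.16 in piPS-2F than in pNSC, where 1 of 2 arrays detected it (at least 1.02-fold), and its difference in fESC against fNSC was -1.02 ± 0.16. In that comparison both fNSC arrays and no fESC array detected it, and no fold is given because the fNSC signals lie below the lowest detected signal of the fESC arrays. Without fNSC replicate 1 these differences were -0.997 and -0.94, without pNSC replicate 2 they were -0.91 and -0.97, and with the offset of 50 they were -0.50 and -0.53, so that both calls were lost each time. Hnrnpdl, a relative of the decay factor Hnrnpd, was called lower in piPS-2F against pNSC by its brighter probe and higher by its other probe, as described with the probes below.

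The Snrp genes were called higher or not at all. Of 8 tested, 3 were called higher in piPS-2F against pNSC, 2 in pESC-B against pNSC and 6 in fESC against fNSC, with median differences of 0.97, 0.50 and 1.22. The share called higher was 37.5%, 25% and 75%, against 27%, 26.1% and 23.9% of all genes. Among all genes 26.4%, 25.1% and 24.8% were called lower. Snrpb, which encodes the Sm ring proteins B and B', had log2 signals of 12.41 and 12.59 in piPS-2F, 12.54 and 12.70 in pESC-B and 12.50 and 12.43 in fESC, against 11.15 and 11.44 in pNSC and 11.38 and 11.15 in fNSC. All pluripotent arrays were higher, with differences of 1.21 ± 0.16, 1.32 ± 0.16 and 1.20 ± 0.16 in the 3 comparisons, the first being 0.99 under median scaling. Snrpa1, a protein of the U2 snRNP, had signals of 11.45 and 11.42 in piPS-2F, 10.89 and 10.73 in pESC-B and 11.82 and 11.72 in fESC, against 10.10 and 10.54 in pNSC and 10.27 and 10.13 in fNSC. It was higher by 1.57 ± 0.16 in fESC than in fNSC (adjusted p = 1.0e-05) and by 1.12 ± 0.16 in piPS-2F than in pNSC, the second call being lost without pNSC replicate 1 (0.90) and under median scaling (0.76). Its second probe gave 1.35 ± 0.22 in fESC against fNSC but -0.08 ± 0.22 in piPS-2F against pNSC, where the mean of both probes was 0.52 and not called. The Sm ring gene Snrpg had signals of 11.98 and 12.10 in piPS-2F, 11.80 and 11.25 in pESC-B and 12.998 and 12.84 in fESC, against 11.06 and 10.98 in pNSC and 11.31 and 11.60 in fNSC. Here the pESC-B and fNSC arrays overlapped. Snrpg was higher by 1.46 ± 0.19 in fESC than in fNSC (adjusted p = 5.3e-05). It was also called higher in piPS-2F against pNSC. That call was lost under median scaling (0.73) and without pNSC replicate 2 (0.99) or piPS-2F replicate 2 (0.95). All 3 Snrp calls in piPS-2F against pNSC, of Snrpb, Snrpa1 and Snrpg, were thus lost under median scaling.

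The SF3 genes were called higher in about the same number in each comparison. Of 8 tested, 4 were called higher in piPS-2F against pNSC, 3 in pESC-B against pNSC and 4 in fESC against fNSC. These were 50%, 37.5% and 50%, against 27%, 26.1% and 23.9% of all genes. None was called lower, against 26.4%, 25.1% and 24.8%. The Sf3b4 call in piPS-2F against pNSC was lost with the offset of 50 (0.88), median scaling (0.24) or the mean of its probes (0.34). It was also lost with the authors' processed values and without piPS-2F replicate 2 (0.68) or either pNSC replicate. The other probe of Sf3b4 gave -0.38 in this comparison. In fESC against fNSC, Sf3b4 and Sf3a2 lost their calls with the offset of 50 (0.90 and 0.77). Both were also lost without fNSC replicate 1, and that of Sf3b4 under median scaling (0.92) and with the mean of its probes (0.96). Sf3b3, a scaffold of the SF3b complex, had log2 signals of 11.44 and 11.56 in piPS-2F, 11.61 and 11.27 in pESC-B and 10.93 and 10.72 in fESC, against 9.50 and 9.44 in pNSC and 9.32 and 9.59 in fNSC. All pluripotent arrays were above all neural arrays, and the differences were 2.03 ± 0.16 (adjusted p = 1.3e-06), 1.97 ± 0.16 (adjusted p = 1.8e-06) and 1.37 ± 0.16 (adjusted p = 2.9e-05). Sf3a1, a subunit of SF3a, had signals of 12.07 and 12.20 in piPS-2F, 11.87 and 12.13 in pESC-B and 11.34 and 11.46 in fESC, against 10.52 and 10.62 in pNSC and 10.17 and 10.15 in fNSC. It too was higher on every pluripotent array, by 1.57 ± 0.14, 1.43 ± 0.14 and 1.24 ± 0.14 in the same order. The promoters of both genes are shown because they are subunits of 1 snRNP that were called higher in every comparison with neural cells.
Sf3a1: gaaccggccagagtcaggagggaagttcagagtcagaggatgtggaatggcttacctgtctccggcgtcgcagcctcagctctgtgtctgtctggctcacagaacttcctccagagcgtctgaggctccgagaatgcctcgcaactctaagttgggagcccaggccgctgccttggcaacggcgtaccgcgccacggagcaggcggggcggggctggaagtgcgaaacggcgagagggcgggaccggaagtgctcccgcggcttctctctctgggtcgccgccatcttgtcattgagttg
Sf3b3: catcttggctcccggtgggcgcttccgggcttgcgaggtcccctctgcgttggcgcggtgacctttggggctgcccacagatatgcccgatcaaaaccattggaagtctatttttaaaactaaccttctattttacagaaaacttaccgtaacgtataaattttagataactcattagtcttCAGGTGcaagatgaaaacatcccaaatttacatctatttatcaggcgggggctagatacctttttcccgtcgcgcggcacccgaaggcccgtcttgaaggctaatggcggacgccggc
The Sf3a1 window lies at chr11:4160104-4160403 on the plus strand and the Sf3b3 window at chr8:110846754-110847053 on the minus strand of GRCm38.p6. The Sf3b3 window holds 1 match to the E-box, and the Sf3a1 window holds none to the E-box, the Klf motif or the octamer. The Sf3a1 window has 2 GC boxes and the Sf3b3 window has 0, so the pair shares none of the 4 motifs in these windows.

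Prpf genes also varied among themselves. Of 10 tested, 2 were called higher and 0 lower in piPS-2F against pNSC, and 2 higher and 1 lower both in pESC-B against pNSC and in fESC against fNSC. The share called higher was 20% each time, against 27%, 26.1% and 23.9% of all genes. The share called lower was 0%, 10% and 10%, against 26.4%, 25.1% and 24.8%. Prpf3, a U4/U6 snRNP protein, had log2 signals of 11.15 and 11.28 in piPS-2F, 11.06 and 10.68 in pESC-B and 10.77 and 10.65 in fESC, against 9.12 and 9.08 in pNSC and 9.41 and 9.35 in fNSC. It was higher on all pluripotent arrays, by 2.11 ± 0.15 (adjusted p = 6.2e-07), 1.77 ± 0.15 (adjusted p = 2.6e-06) and 1.32 ± 0.15 (adjusted p = 2.3e-05). Prpf31, another U4/U6 snRNP protein, had signals of 6.82 and 6.57 in piPS-2F, 5.28 and 5.07 in pESC-B and 6.45 and 5.30 in fESC, against 4.68 and 4.66 in pNSC and 4.80 and 5.60 in fNSC. The 2 fESC arrays differed widely, and the gene was detected on no pESC-B or pNSC array. In piPS-2F against pNSC, Prpf31 was higher by at least 2.26-fold (2.03 ± 0.34, adjusted p = 3.3e-04). Prpf39, a factor associated with the U1 snRNP, had signals of 5.66 and 5.37 in piPS-2F, 5.11 and 5.51 in pESC-B and 5.32 and 5.24 in fESC, against 6.16 and 6.53 in pNSC and 6.997 and 6.96 in fNSC. It was detected on all 4 neural arrays, on 1 piPS-2F array and on no pESC-B or fESC array, and was at least 2.09-fold lower in fESC than in fNSC (-1.70 ± 0.18, adjusted p = 1.3e-05). In pESC-B against pNSC it was at least 1.77-fold lower (-1.04 ± 0.18), a call that was lost without pNSC replicate 2 (-0.82) or pESC-B replicate 1 (-0.85) and with the offset of 50 (-0.65).

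Between the 2 parthenogenetic pluripotent groups few members were called. In piPS-2F against pESC-B, 1 member was higher and 3 were lower, 4 of 60 in all, where 9.45% of all genes were called (4.5% higher and 4.95% lower). Celf2 differed by -1.54 ± 0.13 (adjusted p = 2.8e-05), Ptbp3 by -1.30 ± 0.22 (adjusted p = 0.0021) and Esrp1 by -1.01 ± 0.13 (adjusted p = 4.0e-04), all lower on both piPS-2F arrays. Prpf31 was higher in piPS-2F, at least 2.25-fold (1.52 ± 0.34, adjusted p = 0.0090). These calls rest on few arrays. Without piPS-2F replicate 1 only 1 call was left, with Esrp1 at -0.96, Ptbp3 at -0.91 and Prpf31 at 1.42 (adjusted p = 0.051), and without pESC-B replicate 2 there were 2 calls, with Esrp1 at -0.91 and Prpf31 at 1.44 (adjusted p = 0.052). The second probe of Celf2 was also called lower in piPS-2F (-1.15 ± 0.17).

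Both parthenogenetic pluripotent groups were also set against fESC, and these 2 comparisons share the fESC arrays. In piPS-2F against fESC, 4 members were called higher and 6 lower, 10 of 60, where 23.7% of all genes were called (11.5% higher and 12.2% lower). In pESC-B against fESC, 5 were called higher and 7 lower, 12 of 60, where 27% of all genes were called (14.2% higher and 12.8% lower). Under median scaling 1 member was called higher and 7 lower in the first, where 5.72% and 14.8% of all genes were. In the second, 3 were then called higher and 9 lower, where 10.8% and 13.9% of all genes were. With the authors' processed values the first was 6 higher and 5 lower, where 16.1% and 14.7% of all genes were called. Hnrnpu, a nuclear matrix and chromatin-associated hnRNP, had log2 signals of 5.22 and 5.66 in piPS-2F and 5.42 and 4.85 in pESC-B, against 7.80 and 8.32 in fESC. It was lower by 2.62 ± 0.25 in piPS-2F (adjusted p = 1.7e-05) and by 2.92 ± 0.25 in pESC-B (adjusted p = 8.0e-06, at least 5.79-fold) than in fESC, without overlap. In the neural groups it had 6.15 and 6.003 in pNSC and 7.27 and 6.87 in fNSC, and the interaction was called in both cases (-1.62 ± 0.36 and -1.92 ± 0.36). Prpf6, which bridges parts of the tri-snRNP, had signals of 9.52 and 9.15 in piPS-2F and 9.41 and 9.30 in pESC-B, against 10.54 and 10.65 in fESC. It was lower by 1.26 ± 0.15 in piPS-2F and by 1.24 ± 0.15 in pESC-B than in fESC. Hnrnph1, a G-run binding relative of Hnrnpf, had signals of 12.59 and 12.58 in piPS-2F against 11.37 and 11.31 in fESC, and was called higher (1.24 ± 0.13, adjusted p = 2.6e-05). Of its 5 probes 3 were called, and with their mean the call was lost (0.95). Hnrnpk, which binds C-rich RNA, was also called higher there (1.00 ± 0.18), and this call was lost without piPS-2F replicate 1 (0.86) or fESC replicate 1 (0.86), with the offset of 50 (0.99) and under median scaling (0.89). Its second probe went the other way, with -0.97 ± 0.16 in piPS-2F and a lower call of -1.25 ± 0.16 in pESC-B against fESC, and with the mean of both probes the piPS-2F difference was 0.015 (adjusted p = 0.94).

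Other members of these 2 comparisons were regulators. Against fESC, Ptbp3 was lower by 2.13 ± 0.22 in piPS-2F (adjusted p = 2.9e-05), and in pESC-B its difference from fESC was -0.83 ± 0.22. Celf4 was called higher in the same comparison of piPS-2F (1.24 ± 0.21, adjusted p = 7.5e-04), with 0.90 when fESC replicate 1 was left out. In pESC-B against fESC, Esrp1 was higher by 1.23 ± 0.13 (adjusted p = 3.1e-05), Esrp2 by 1.18 ± 0.27 (adjusted p = 0.0038, at least 1.06-fold) and Celf2 by 1.02 ± 0.13 (adjusted p = 9.1e-05). Without pESC-B replicate 2 the Esrp2 difference was 0.94 and that of Celf2 0.94, and both calls were lost. The second Celf2 probe did not follow the first here, with -0.70 ± 0.17 in pESC-B and -1.85 ± 0.17 in piPS-2F against fESC, while the first probe gave -0.51 ± 0.13 in piPS-2F, and the mean of both was 0.16 in pESC-B (adjusted p = 0.309). The SR protein gene Srsf4 had signals of 10.94 and 11.03 in pESC-B against 9.72 and 9.78 in fESC, and was called higher (1.23 ± 0.14, adjusted p = 4.4e-05). Snrp genes stood on the lower side, with 3 of 8 called lower in pESC-B against fESC (37.5%, against 12.8% of all genes). Their median there was -0.91, with Snrpg at -1.39 ± 0.19. Of the other calls, named here after their values were seen, Snrpd3 was lost without pESC-B replicate 2 (-0.84) or fESC replicate 1 (-0.88), and Snrpc without pESC-B replicate 1 (-0.95) or fESC replicate 1 (-0.95).

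Between the neural groups, pNSC against fNSC, 1 of 60 members was called, where 11.3% of all genes were called (5.11% higher and 6.24% lower). Celf2 was higher by 1.13 ± 0.13 in pNSC (adjusted p = 1.4e-04), with 11.22 and 11.31 in pNSC against 10.15 and 10.12 in fNSC. Its second probe gave 0.83 ± 0.17 (adjusted p = 0.0044), under the fold limit, and with the mean of both probes the call was lost (0.98). Of the 50 core factors, limma called 0, while 17 had an unadjusted p under 0.05, 12 higher and 5 lower. The share of all genes under that limit was not counted, so these 17 are not a result about the members. Leaving out 1 array at a time gave 1 to 3 calls among the 60 members, with 3 calls when fNSC replicate 2 or pNSC replicate 1 was left out.

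The rest of the splicing pathway was followed in 4 lists that hold no member. Of 53 tested other core spliceosome factors, 18 were called higher and 7 lower in piPS-2F against pNSC (34% and 13.2%, against 27% and 26.4% of all genes), 16 higher and 5 lower in pESC-B against pNSC (30.2% and 9.43%, against 26.1% and 25.1%) and 20 higher and 1 lower in fESC against fNSC (37.7% and 1.89%, against 23.9% and 24.8%), with medians of 0.66, 0.55 and 0.79. Luc7l, related to a yeast U1 snRNP protein, was higher by 2.90 ± 0.14 in piPS-2F than in pNSC and by 2.51 ± 0.14 in fESC than in fNSC. Bud13, known from the yeast RES complex, was higher by 2.31 ± 0.17 in piPS-2F, while Zcrb1, a minor spliceosome protein, and Snrnp27, a tri-snRNP protein, fell by 2.18 ± 0.15 and 1.57 ± 0.14 there. The helicase Dhx16 was higher by 3.27 ± 0.16 in fESC than in fNSC, while its difference in piPS-2F against pNSC was 0.32 ± 0.16, and the interaction test gave -2.95 ± 0.22 (adjusted p = 1.19e-05). In that test 2 of the 53 were called more positive and 13 more negative (3.77% and 24.5%, against 14.3% and 14.2% of all genes). Slu7, a factor of the second splicing step, was at least 2.57-fold lower in fESC than in fNSC (-1.56 ± 0.15). Of 23 tested factors of snRNP assembly and the exon junction complex, 11 were called higher and 1 lower in piPS-2F against pNSC (47.8% and 4.35%), 10 higher and 1 lower in pESC-B against pNSC (43.5% and 4.35%) and 12 higher and 0 lower in fESC against fNSC (52.2% and 0%), with medians of 0.98, 0.73 and 1.18, to be read against the same shares of all genes. These included genes of the SMN complex, which loads Sm rings on snRNAs: Gemin4 rose by 2.95 ± 0.14 and Gemin6 by 2.29 ± 0.14 in piPS-2F against pNSC, and Gemin2 rose by 3.09 ± 0.30 and Gemin5 by 2.44 ± 0.19 in fESC against fNSC. The cap-binding gene Ncbp2 fell by 1.13 ± 0.15 in piPS-2F against pNSC.

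The other tissue regulators were also called in both directions. Of 23 tested, 7 were called higher and 5 lower in piPS-2F against pNSC (30.4% and 21.7%, against 27% and 26.4% of all genes), 8 higher and 6 lower in pESC-B against pNSC (34.8% and 26.1%, against 26.1% and 25.1%) and 3 higher and 5 lower in fESC against fNSC (13% and 21.7%, against 23.9% and 24.8%), with medians of -0.02, -0.01 and -0.12. In the first comparison these shares are near those of all genes. Rbm47, an RNA-binding protein of epithelial cells, was higher by at least 35.6-fold in piPS-2F than in pNSC (6.06 ± 0.15) and by at least 23.8-fold in fESC than in fNSC (5.41 ± 0.15). Rbms1 was higher by 2.80 ± 0.18 and 1.64 ± 0.18 in these comparisons, and its relative Rbms3 was lower, with -1.75 ± 0.15 and -3.05 ± 0.15. Rbm4b fell by 2.02 ± 0.13 in piPS-2F against pNSC, and Bicc1 was at least 3.49-fold lower in fESC than in fNSC. Of 7 tested kinases and phosphatases of SR proteins, 3 were called higher and 1 lower in piPS-2F and in pESC-B against pNSC (42.9% and 14.3% each) and 2 higher and 1 lower in fESC against fNSC (28.6% and 14.3%). The SR protein kinase gene Srpk1 was higher by 1.91 ± 0.14 and 2.16 ± 0.14 and the phosphatase gene Ppm1g by 1.23 ± 0.15 and 1.37 ± 0.15. The kinase gene Dyrk1a fell by 1.45 ± 0.16 in piPS-2F against pNSC, and Srpk2 fell by 1.23 ± 0.17 in fESC against fNSC.

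Probes of 1 gene often gave different answers, and how often depended on the comparison. Of the tested members, 29 had 2 or more tested probes. In fESC against fNSC the highest and lowest differences among the probes of a gene lay 0.27 apart in the median, in piPS-2F against pESC-B 0.29 and in pNSC against fNSC 0.34. The median spread was 1.20 in piPS-2F against pNSC, 0.83 in pESC-B against pNSC, 1.15 in piPS-2F against fESC and 0.84 in pESC-B against fESC. The 4 comparisons with the wide spread are those that set piPS-2F or pESC-B arrays, with a mean intensity of 287 to 327, against arrays with 476 to 625. The 3 with the narrow spread compare arrays within 1 of these ranges, and the part of brightness in the spread was not tested. Among members with at least 1 called probe, all probes were called alike in 7 of 22 in piPS-2F against pNSC (31.8%, against 47.4% of all genes with several probes), in 8 of 20 in pESC-B against pNSC (40%, against 47.5%) and in 8 of 13 in fESC against fNSC (61.5%, against 58.1%). In piPS-2F against fESC the share was 1 of 14 (7.14%, against 13.3%), in pESC-B against fESC 1 of 12 (8.33%, against 17.6%), in pNSC against fNSC 0 of 2 (0%, against 27.9%) and in piPS-2F against pESC-B 1 of 1, the gene Celf2. The spread of the probes is plotted by comparison.

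**Figure D3:**
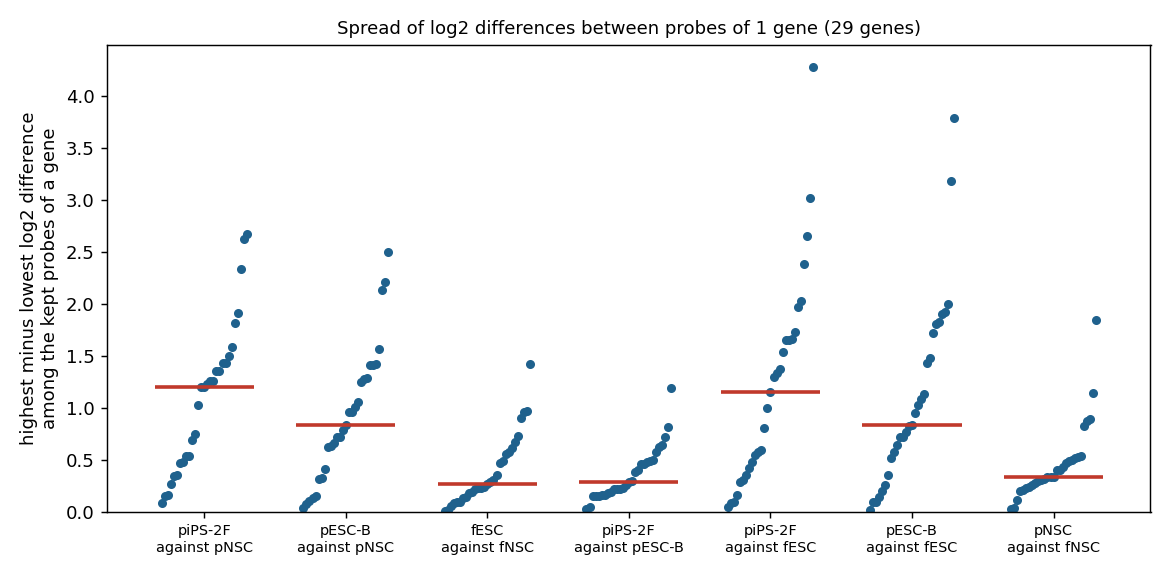
Spread between probes of 1 gene: the highest minus the lowest log2 difference among the tested probes (vertical axis) of each of the 29 member genes with 2 or more tested probes, for the 7 comparisons on the horizontal axis. Each point is a gene and the red lines are medians, which are 0.83 to 1.20 where piPS-2F or pESC-B is set against pNSC or fESC and 0.27 to 0.34 in the other 3 comparisons.

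Opposite calls by probes of 1 gene came from Hnrnpdl and Prpf40b. The brighter probe of Hnrnpdl had log2 signals of 9.99 and 9.96 in piPS-2F, 10.07 and 10.35 in pESC-B and 11.98 and 12.10 in fESC, against 10.92 and 11.17 in pNSC and 11.50 and 11.17 in fNSC. Its other probe had 11.34 and 11.21 in piPS-2F, 11.56 and 11.79 in pESC-B and 10.37 and 10.26 in fESC, against 9.90 and 10.11 in pNSC and 10.00 and 9.94 in fNSC. The first probe was thus lowest in the 2 groups in which the other was highest. In piPS-2F against pNSC the probes gave -1.07 ± 0.17 (lost as a call without pNSC replicate 2, at -0.96) and 1.27 ± 0.14, and in pESC-B against fESC -1.83 ± 0.17 and 1.36 ± 0.14, each pair called in opposite directions. In piPS-2F against fESC they gave -2.06 ± 0.17 and 0.96 ± 0.14. The direction of Hnrnpdl depended on the probe, and with the mean of both probes it was not called in piPS-2F against pNSC (0.10).

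A pair of further hnRNPs, named after their values were seen, had 1 probe that fell and 1 that was not called. The brighter probe of Hnrnpa2b1, a factor of splicing and RNA transport, differed by 0.49 ± 0.15 in piPS-2F against pNSC and by 0.91 ± 0.15 in piPS-2F against fESC. Its second probe had signals of 7.22 and 6.32 in piPS-2F and 6.59 and 6.95 in pESC-B, against 10.34 and 9.94 in fESC, 8.72 and 9.08 in pNSC and 10.41 and 10.31 in fNSC. That probe was lower by 2.13 ± 0.28 in piPS-2F and in pESC-B than in pNSC, and by 3.37 ± 0.28 in each than in fESC. Hnrnpll, known for the exon choice in the lymphocyte gene Ptprc, showed the same picture, with 0.52 ± 0.16 for the brighter probe and -2.15 ± 0.21 for the other in piPS-2F against pNSC. In fESC against fNSC its probes gave -0.94 ± 0.16 and -0.96 ± 0.21. Prpf40b, a U1-associated factor, had its brighter probe higher in piPS-2F than in fESC (1.00 ± 0.18, with 0.93 without piPS-2F replicate 2 and 0.86 without fESC replicate 2) and its other probe lower (-1.02 ± 0.17). In pESC-B against fESC these were 1.51 ± 0.18 and -0.49 ± 0.17.

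Prpf38a, which is needed to activate the spliceosome, had probes that differed in size and not in direction in the comparisons with fESC. Its 4 probes were all lower in piPS-2F than in fESC, with differences of -1.20 ± 0.15, -2.14 ± 0.18 and -1.43 ± 0.13 for the 3 brighter probes, and all lower in pESC-B than in fESC, with -1.61 ± 0.15, -2.35 ± 0.18 and -2.29 ± 0.13 for these 3. The dimmest probe was at least 7.95-fold lower in piPS-2F and at least 7.62-fold lower in pESC-B than in fESC. All 4 were called in both comparisons. The brightest probe had signals of 10.16 and 9.84 in piPS-2F and 9.51 and 9.67 in pESC-B, against 11.30 and 11.10 in fESC. The dimmest had 4.50 and 4.71 in piPS-2F and 5.15 and 4.74 in pESC-B, not detected there, against 8.51 and 8.40 in fESC. The probes of these 4 genes are plotted by group.

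**Figure D4:**
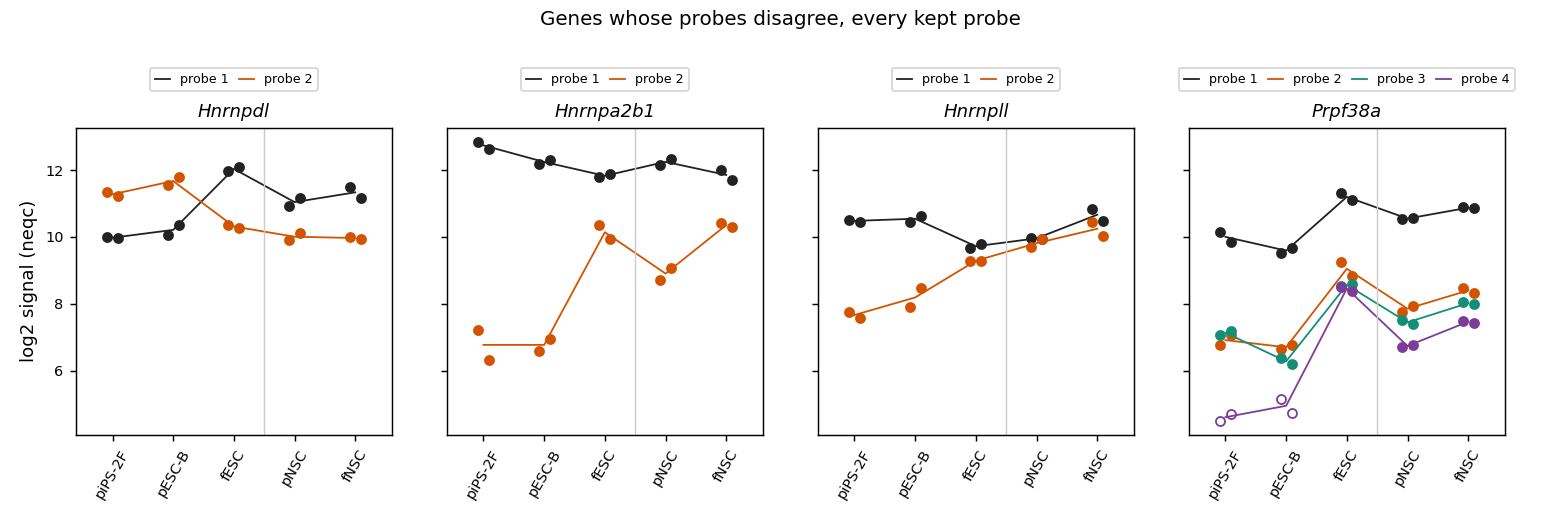
Log2 signal (vertical axis) of every tested probe of Hnrnpdl, Hnrnpa2b1, Hnrnpll and Prpf38a by group (horizontal axis). Points are single arrays, open where the probe was not detected, coloured lines join the group means of 1 probe, and probes are numbered from the brightest. The probes of Hnrnpdl cross between the groups, 1 probe of Hnrnpa2b1 and of Hnrnpll drops in piPS-2F and pESC-B, and all 4 probes of Prpf38a are higher in fESC.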

How the data were processed

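The 5 groups of 2 arrays follow the labels. The authors deposited a linear intensity and a detection p-value per probe and array, not normalized but already background-subtracted, since 22.9% to 28.3% of the intensities of an array are below 0. The authors' processed values, also deposited, run between 1.3 and 15.26 and were read as log2, an assumption, and used as an alternative. BeadStudio 3.2, RMA and lumi are named per the submitters' processing notes. Symbols come from GEO's platform annotation with its build not stated.

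From the intensities, neqc of limma 3.58.1 (R 4.3.3, offset 16) corrected background, normalized by quantiles and took log2. Quantile normalization gives all arrays 1 distribution, and the offset shrinks differences of dim probes. lmFit (1 mean per group, all 10 arrays, 5 residual degrees of freedom) and eBayes on the 13564 tested probes gave 7 comparisons and 2 interactions. For a lower bound, the dim group's level was, per array, the probe's own signal or that of the dimmest detected probe, whichever was higher. On simulated data, 100 of 100 changes of 1.5 and 100 of 100 changes of 3 were recovered, with 0 unchanged probes called. The changes were put only on brighter probes, with random noise of the fitted size and no difference in brightness between arrays. The simulation therefore says nothing about calls of dim probes or differences near 1.

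The members and the 4 further lists (146 genes, 129 with a probe, 106 tested) were chosen with earlier results of these data known. The text names all tissue regulators, up to 3 highest and 3 lowest called core factors per comparison whose arrays do not overlap, genes with probes called in opposite directions, and up to 2 list genes per direction. Processing alternatives are given in the closing section.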

Additional observations from a re-analysis of the deposited data

Results flagged for a closer look

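For the members below, the limma interaction test called the difference of pluripotent from neural groups as unlike between the parthenogenetic groups and fESC with fNSC. Each value is the log2 difference in piPS-2F or pESC-B against pNSC minus that in fESC against fNSC, ± SE, with 2 arrays in each group. The pNSC, fESC and fNSC arrays are shared by both sets of values, and the brightness of the piPS-2F and pESC-B arrays follows the groups.

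For piPS-2F, 8 of 60 members were called, where 28.5% of all genes were. Among regulators, the value was -1.648 ± 0.183 for Celf2 (adjusted p = 1.03e-04), 1.413 ± 0.224 for Mbnl2 (adjusted p = 7.77e-04) and -1.452 ± 0.315 for Ptbp3 (adjusted p = 0.00451). Among core factors it was 1.418 ± 0.181 for Hnrnph1 (adjusted p = 2.27e-04), 1.465 ± 0.221 for Hnrnpll (adjusted p = 5.9e-04), -1.769 ± 0.237 for Hnrnpdl (adjusted p = 3.03e-04), -1.621 ± 0.356 for Hnrnpu (adjusted p = 0.00484) and 1.35 ± 0.487 for Prpf31 (adjusted p = 0.0465). The call of Prpf31 was lost when any 1 of 8 arrays was left out, all but fNSC replicate 1 and fESC replicate 1, with adjusted p between 0.0583 and 0.172. Other probes differ: the second probe of Mbnl2 gave 0.05 ± 0.29 (adjusted p = 0.901), that of Hnrnpll went the other way, at -1.19 ± 0.29, and of the 5 probes of Hnrnph1 3 were called. The other probe of Hnrnpdl also went the other way, with 1.27 in piPS-2F against pNSC and 0.35 in fESC against fNSC. With the mean of a gene's probes, the calls of Mbnl2 (0.7335), Hnrnph1 (0.8493), Hnrnpll (0.1364) and Hnrnpdl (-0.4227) were lost.

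For pESC-B, 11 of 60 members were called, where 30.2% of all genes were. Regulators had values of 1.502 ± 0.185 for Mbnl1 (adjusted p = 1.62e-04), 1.111 ± 0.186 for Esrp1 (adjusted p = 9.77e-04) and 1.217 ± 0.383 for Esrp2 (adjusted p = 0.0253). Core factors had values of 1.165 ± 0.181 for Hnrnph1 (adjusted p = 6.19e-04), 1.531 ± 0.221 for Hnrnpll (adjusted p = 4.13e-04), -1.534 ± 0.237 for Hnrnpdl (adjusted p = 6.1e-04), -1.925 ± 0.356 for Hnrnpu (adjusted p = 0.00173), -1.249 ± 0.231 for Snrpd3 (adjusted p = 0.00173), -1.075 ± 0.233 for Snrpa1 (adjusted p = 0.00411), -1.282 ± 0.215 for Prpf38a (adjusted p = 9.81e-04) and 1 ± 0.253 for Prpf40b (adjusted p = 0.00922). Without pESC-B replicate 2 the calls of Esrp1 (0.9993), Snrpa1 (-0.9957) and Esrp2 (adjusted p = 0.0871) were lost, and that of Snrpa1 also without pNSC replicate 2 (-0.8648). Each of Esrp2 and Prpf40b lost its call when any 1 of 6 arrays was left out, with adjusted p of 0.0589 to 0.0871 for Esrp2 and values of 0.7603 to 0.9992 for Prpf40b. The other probes of Hnrnpdl and Hnrnpll went against their brighter probes here. That of Hnrnpdl had 1.67 in pESC-B against pNSC and 0.35 in fESC against fNSC, and that of Hnrnpll had -1.62 and -0.96. With the mean of a gene's probes, the calls of Hnrnph1 (0.3943, adjusted p = 0.0851), Hnrnpll (0.4321), Hnrnpdl (-0.1063) and Prpf40b (0.5722) were lost. The cause of these differences was not tested.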

How the results depend on the processing

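Of 117 called gene values, the call held in 92 with an offset of 50, 112 without normexp correction, 92 under median scaling, 113 with the authors' processed values, 114 without a filter on dim probes, 116 with a detection p of 0.05, 91 with the mean of a gene's tested probes, 117 with 1 probe per gene and 116 with only the arrays compared. With the mean of probes, 24 calls were lost and 2 values changed sign, Hnrnpdl in piPS-2F against pNSC (0.1013, adjusted p = 0.532) and Prpf40b in piPS-2F against fESC (-0.007761, adjusted p = 0.968), whose probes disagree. With the offset of 50, 1 member was called in piPS-2F against pESC-B, where 2.42% of all genes were called higher and 2.72% lower. In piPS-2F against fESC 6 members were then called (1 higher, 5 lower), where 6.57% and 9.38% of all genes were. In pNSC against fNSC, 3 members were called without normexp correction, 2 under median scaling, 2 with the authors' values and 0 with the mean of probes; the cause was not tested. Leaving out each array in turn kept 1101 of 1170 calls and lost 69. The number of members called was then 23 to 29 in piPS-2F against pNSC, 22 to 23 in pESC-B against pNSC, 21 to 23 in fESC against fNSC, 1 to 4 in piPS-2F against pESC-B, 8 to 11 in piPS-2F against fESC, 11 to 15 in pESC-B against fESC, 1 to 3 in pNSC against fNSC, and 7 to 11 and 9 to 13 in the interactions of piPS-2F and pESC-B. Deviations of arrays with the same replicate number correlated at -0.104 to 0.0986 over 10 pairs of groups, 0 of them over 0.1, so the numbers do not pair the arrays. With the replicate number as a block all the same, the counts were 27, 22, 22, 4, 10, 12 and 1 in the same order and 8 and 12 in the interactions, and 1 call was lost (Prpf31, 1.35, adjusted p = 0.053). Under median scaling the interaction of piPS-2F split into 3 higher and 8 lower, where 9.24% and 19% of all genes were called. That of pESC-B split into 3 higher and 10 lower, where 12.3% and 17% of all genes were called. Slide as a block was not run, since no slide is given per array. Detection limits the dim genes: Esrp2, Hnrnpa3 and Hnrnph2 lie near the lowest detected signal, 5.31 to 5.98 by array, as does Celf4 in fESC.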
